A study of Mesocricetus auratus with 8 samples.

Results

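The Wnt pathway genes of Syrian hamster satellite cells (SCs), from which muscle fibers regenerate, were described in cells kept at 37°C and in cells exposed to 4°C for 24 h. Genes were taken by symbol: Wnt ligands, Frizzled (Fzd) receptors, Sfrp and Dkk antagonists and R-spondins (Rspo) with a number, every Tcf7 gene, and Lef1, Lgr4, Lgr5, Lgr6, Lrp5, Lrp6, Axin1, Axin2, Ctnnb1, Nkd1, Nkd2, Dvl1, Dvl2, Dvl3, Znrf3 and Rnf43. Of 60 entries with such a symbol, 56 had values, among 17590 of 31581 entries with values in all. Wnt3a, Wnt7a, Wnt8b and Dkk4 were listed without values.

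All 8 libraries came from poly(A) RNA of wild-type primary SCs, isolated from hindlimb muscle of sexually mature male hamsters (Slc:Syrian) and enriched by preplating. After 48 h in growth medium and 24 h in growth medium with 100 mM HEPES, both at 37°C, 4 control libraries were made at 0 h of cold and 4 cold libraries after 24 h at 4°C. Titles place all controls at day 3, whereas the treatment field counts 3, 4, 5 and 6 days of culture at 37°C for these libraries in order of replicate number. By the titles, no control was kept past day 3, and cold and the added 24 h of culture cannot be told apart. The treatment field would make controls 2 to 4 older, whereas the study's protocol has the 48 h and 24 h steps only, which add up to the day of the titles. The study describes the libraries as biological replicates, but the labels do not tie them to animals or cultures, so p-values measure the spread between these libraries, which may be in part technical. Depth was 16530747 to 18093905 expected counts per control library and 17388779 to 18533801 per cold library. Replicates 1 and 2 stood apart from replicates 3 and 4 in both groups, and libraries sharing a replicate number deviated together, so estimates blocked on replicate number (with the block) are given for single genes, and every unblocked adjusted p of a Wnt gene was at least 0.828. The SC and myoblast markers Pax7 and Myod1 had control means of 12.7 and 614 TPM (abundance scaled by transcript length and library total). Myog, which the study uses as a marker of differentiation, had 738 TPM. A lower TPM can reflect fewer cells of a type or less RNA per cell, which bulk libraries cannot tell apart.

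Wnt ligands are secreted lipid-modified proteins that bind Frizzled receptors with the co-receptors Lrp5 and Lrp6. In the canonical branch, Dishevelled (Dvl) then restrains the Axin destruction complex, so that beta-catenin (Ctnnb1) accumulates and acts with TCF/LEF factors on target genes. Sfrp and Dkk proteins oppose the ligands or co-receptors, R-spondins acting through Lgr4, Lgr5 and Lgr6 spare Frizzleds from the ubiquitin ligases Znrf3 and Rnf43, and in muscle the pathway is known for roles in SC differentiation and self-renewal.

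In most role groups, 1 or a pair of genes made up most of the TPM. A mean of at least 1 TPM was reached by 33 of the 56 genes. Wnt5a and Wnt9a together made 68.5% to 80.1% of the summed ligand TPM in each library, and Fzd1 and Fzd2 made 56.0% to 62.6% of the Frizzled TPM. Dkk3 made 69.0% to 82.1% of the antagonist TPM, Lgr4 made 71.6% to 82.4% of the R-spondin and LGR TPM, and Tcf7 made 55.0% to 60.7% of the TCF/LEF TPM. The antagonist sum covers Sfrp and Dkk genes with a number only, and leaves out the antagonist Frzb (control mean 4.86 TPM). Among the intracellular genes, Ctnnb1 made 70.6% to 76.2%. At the other end, Wnt1, Wnt3 and Dkk1 had 0 counts in all 8 libraries, and Rspo1 and Wnt8a had at most 3 counts in any library. A count of 3, the floor used here for counting error only, is 0.181 CPM in the shallowest library, and lower expression could not be detected. Lef1 reached at most 0.16 TPM in any library, against more than 14 TPM for Tcf7 in each of the 8.

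**Figure D1:**
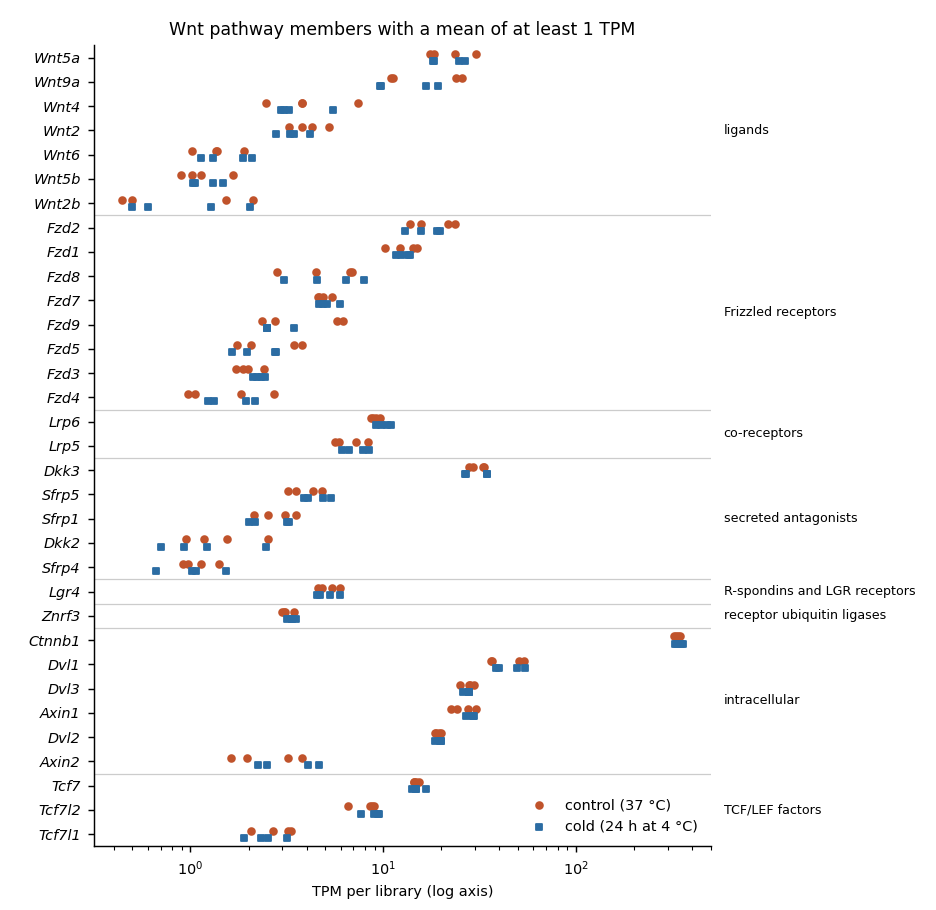
TPM (log axis) of the 33 Wnt pathway genes with a mean of at least 1 TPM, grouped by role, with 1 point per library (4 control circles, 4 cold squares). Ctnnb1 lies far to the right of the other genes, and control and cold points of each gene overlap.

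Between cold and control libraries, no Wnt gene was called in the unblocked comparison, and 1 ligand, Wnt9a, was lower with the replicate block. Of the 56 genes, 42 had enough counts to be tested. Without the block, edgeR's quasi-likelihood test called 0 of 42 genes in either direction, with a lowest adjusted p of 0.828, 0 genes at an unadjusted p under 0.05 (516 lower and 322 higher over all genes tested), and 0 called by DESeq2 or limma. Over all 12506 genes tested, the same test found 0.072% lower in the cold and 0.0% higher without a fold threshold, and 0.04% lower with the study's added threshold of a log2 fold change of at least 1. The study, by its own test, reported more genes under that rule, all lower, and unblocked DESeq2 gave 66, also all lower. With the block, 1 of 42 Wnt genes was lower and 0 were higher, against a background of 4.07% lower and 1.26% higher, or 5.33% in either direction. At an unadjusted p under 0.05 with the block, 6 Wnt genes were lower and 4 higher, beside 1220 and 1061 of all genes tested. No Wnt gene passed the fold threshold with the block, where 0.808% of all genes were lower. Log2 fold changes were negative for 21 genes and positive for 21, with a median of −0.01, beside 0.01 over all genes tested. In none of the 42 did control and cold TPM values fall apart without overlap, as they did in 4.68% of all genes tested. With the block, the 95% interval of the fold change lay within a log2 value of 1 of 0 for 37 of the 42 genes (88.1%, beside 97.0% of all genes tested), and within 0.5 for 27 (64.3%, beside 85.1%).

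**Figure D2:**
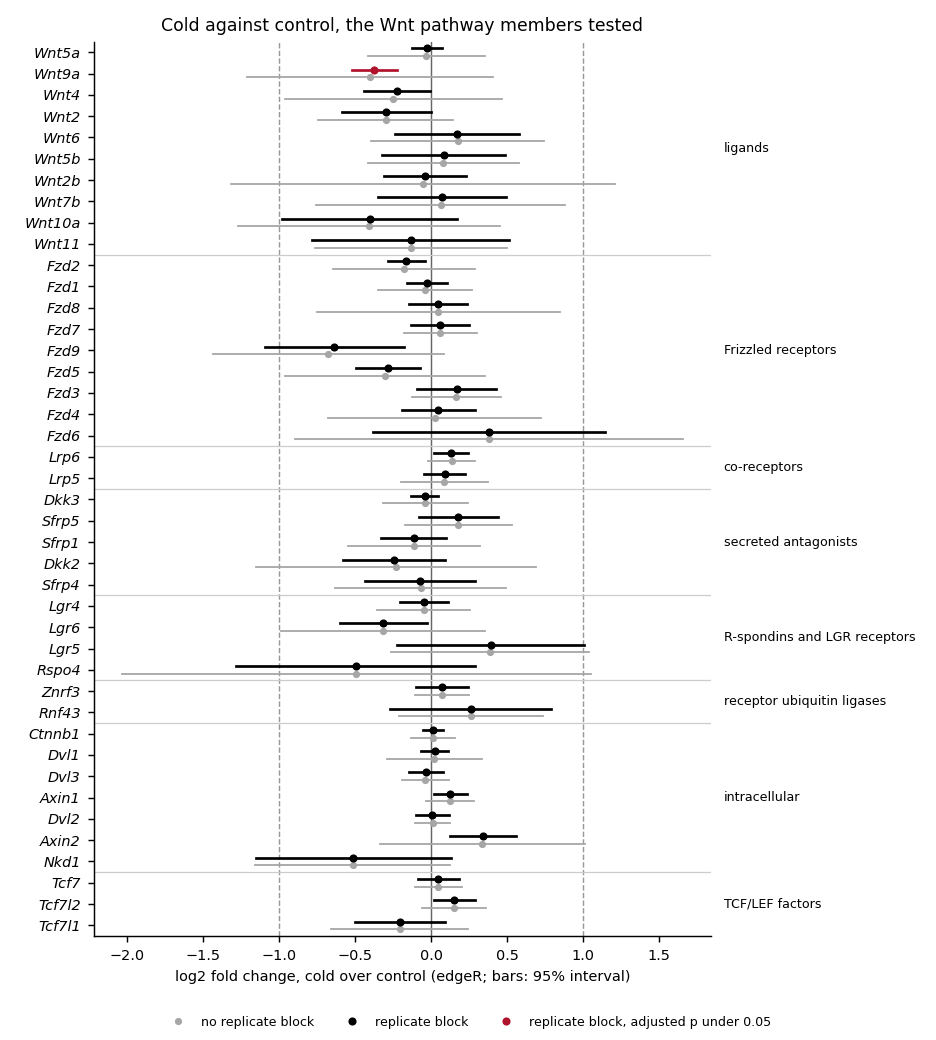
Log2 fold change of cold over control (edgeR) with 95% intervals for the 42 Wnt genes tested, without the replicate block (grey) and with it (black, or red at an adjusted p under 0.05), and dashed lines at −1 and 1. Wnt9a is the only gene in red, and the block shortens the intervals of genes such as Wnt2b, Wnt9a and Fzd8.

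Among the ligands, Wnt9a (NCBI gene ID 101836596), a ligand known for its role in joint formation, had 25.6, 23.7, 11.0 and 11.2 TPM in control replicates 1 to 4 and 16.7, 19.2, 9.74 and 9.64 TPM in cold replicates 1 to 4. All 4 pairs were lower in the cold, yet the cold libraries 1 and 2 stayed above the control libraries 3 and 4, so the groups overlapped. Control libraries averaged 17.9 ± 7.84 TPM and cold libraries 13.8 ± 4.88 TPM (SD, n = 4). Without the block the log2 fold change was −0.40 (edgeR, adjusted p = 0.999, 95% interval −1.21 to 0.41), and an exact two-sided permutation test of TPM gave p = 0.343. The unblocked value ran from −0.17 without control replicate 1 to −0.62 without cold replicate 2, and did not pass in any of the 8 cases. With the block it was −0.37 (standard error 0.07, adjusted p = 0.00248, edgeR; 95% interval −0.52 to −0.22), a change of −22.8%. DESeq2 with the same block gave −0.36 (adjusted p = 0.0112). The blocked log2 fold change was −0.26 (edgeR, adjusted p = 0.0386) without number 1, the pair of largest difference, and −0.39 to −0.43 without any other number. A list of 12 early differentiation genes, such as Myog and Myl4, moved with the same libraries, and its summed TPM was highest in numbers 1 and 2. The sum was 5563.29 to 10985.72 in control and 3618.12 to 6404.90 in cold libraries, most of it Actc1 (means 5150 and 3360 TPM). All 12 genes were lower with the block, beside 4.07% of all genes tested, and 1 without it. The study had named several of them, such as Acta1, Myh3 and Myl4, as lower in the cold from these libraries. Their fall here is thus no separate evidence. The part of the early differentiation shift in the Wnt9a values was not tested.

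Wnt5a, best known for signaling independent of beta-catenin, had 18.2, 17.4, 23.6 and 30.2 TPM in control replicates 1 to 4 and 18.3, 18.1, 24.8 and 26.5 TPM in the cold. The cold values lay inside the control range, replicates 3 and 4 were above 1 and 2 in both groups, and the blocked log2 fold change was −0.03 (95% interval −0.13 to 0.07). The summed TPM of all 16 ligands was lower in 4 of 4 pairs, at 50.07 to 59.63 in control and 45.43 to 52.84 in cold libraries, while the intracellular and co-receptor sums were higher in 4 of 4. These sums were not tested, and Wnt9a alone went from 25.6 to 16.7 TPM in pair 1, where the ligand sum went from 54.7 to 45.4 TPM. In pair 4, the ligand sum went from 59.6 to 52.8 TPM, with Wnt9a from 11.2 to 9.64 and Wnt5a from 30.2 to 26.5 TPM. The other 8 ligands tested did not pass the threshold in either fit. Of these, Wnt2 and Wnt4 had control means of 4.14 and 4.37 TPM and blocked log2 fold changes of −0.29 and −0.23, and Wnt6, Wnt5b, Wnt2b, Wnt7b, Wnt10a and Wnt11 had means of 2 TPM or less.

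Fzd2, the most abundant of the Frizzled receptors, was at 21.7, 23.5, 13.8 and 15.8 TPM in control replicates 1 to 4 and at 18.9, 19.6, 13.0 and 15.8 TPM in the cold. The cold values sat within the control range except that of replicate 3, and the blocked log2 fold change was −0.16 (edgeR, adjusted p = 0.127), or −0.23 (adjusted p = 0.0173) without number 4 and −0.12 (adjusted p = 0.54) without number 2. Fzd1 had 14.9, 14.3, 12.2 and 10.3 TPM in control libraries and 13.4, 13.8, 12.3 and 11.6 TPM in the cold ones, and every cold value lay inside the control range (blocked log2 fold change −0.03, 95% interval −0.16 to 0.10). Fzd9 and Fzd5 were chosen with their values in view, because each was called with the block once a number was left out. Fzd9 had 6.16, 5.78, 2.36 and 2.73 TPM in control libraries and 2.50, 2.50, 3.45 and 2.48 TPM in the cold ones, so that it was lower by more than 1 on the log2 scale in pairs 1 and 2 and higher in pair 3. Its blocked log2 fold change of −0.64 (edgeR, adjusted p = 0.109) became −0.98 (adjusted p = 0.0029) without number 3 and −0.78 (adjusted p = 0.0402) without number 4, but −0.36 (adjusted p = 0.517) without number 1 and −0.41 (adjusted p = 0.537) without number 2. Whether the pairs differed from each other in Fzd9 was not tested. For Fzd5, the blocked value was −0.28 (edgeR, adjusted p = 0.122), with −0.41 (adjusted p = 0.0215) without number 3 and −0.19 (adjusted p = 0.556) without number 1. None of the 9 Frizzled genes tested passed the threshold with all libraries.

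The co-receptor Lrp6 was at 8.81, 8.62, 9.13 and 9.63 TPM in control libraries and 10.4, 10.9, 9.73 and 9.12 TPM in the cold ones. It was higher in the cold in replicates 1 to 3 and lower in replicate 4, with a blocked log2 fold change of 0.13 (edgeR, adjusted p = 0.176), or 0.19 (adjusted p = 0.0291) without number 4 and 0.07 (adjusted p = 0.706) without number 2. Lrp5 had 5.87, 5.63, 8.32 and 7.21 TPM in control libraries and 6.11, 6.63, 8.42 and 7.87 TPM in the cold ones. It was slightly higher in 4 of 4 pairs, yet did not pass the threshold (blocked log2 fold change 0.09, 95% interval −0.05 to 0.22).

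Among the secreted antagonists, Dkk3, a divergent Dkk family member, had 33.0, 33.4, 28.0 and 29.2 TPM in control libraries and 34.3, 34.5, 26.4 and 26.9 TPM in the cold ones. Replicates 1 and 2 were above 3 and 4 in both groups, and the blocked log2 fold change was −0.04 (95% interval −0.13 to 0.05). Sfrp5, which binds Wnt ligands, had 3.53, 3.22, 4.32 and 4.82 TPM in control libraries and 4.06, 3.88, 5.38 and 4.84 TPM in the cold ones. All 4 pairs were higher in the cold, but the groups overlapped, with a blocked log2 fold change of 0.18 (95% interval −0.08 to 0.44).

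Lgr4, an R-spondin receptor, had 5.97, 5.43, 4.82 and 4.59 TPM in control libraries and 5.29, 5.96, 4.68 and 4.51 TPM in the cold ones. Lgr6, of the same family, had 1.17, 1.03, 1.05 and 0.52 TPM in control libraries and 0.96, 0.85, 0.80 and 0.47 TPM in the cold ones. Lgr6 was lower in 4 of 4 pairs with overlapping groups (blocked log2 fold change −0.31, edgeR, adjusted p = 0.218), and Lgr4 showed no common direction (−0.05, 95% interval −0.21 to 0.11). The ligase Znrf3 had 3.10, 2.98, 3.45 and 3.06 TPM in control libraries and 3.37, 3.52, 3.15 and 3.35 TPM in the cold ones. Rnf43, a ligase of the same kind, had 0.25, 0.29, 0.24 and 0.19 TPM in control libraries and 0.38, 0.23, 0.44 and 0.25 TPM in the cold ones, and neither ligase passed the threshold. Their blocked log2 fold changes were 0.07 (95% interval −0.10 to 0.24) for Znrf3 and 0.26 (95% interval −0.27 to 0.79) for Rnf43.

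Ctnnb1 was by far the most abundant of the 56 genes, with 345, 339, 330 and 321 TPM in control libraries and 359, 349, 333 and 325 TPM in the cold ones. The pairs were nearly level, and the blocked log2 fold change of 0.01 had a 95% interval of −0.06 to 0.08. Dvl1, which relays the receptor signal, had 36.0, 36.8, 53.7 and 50.8 TPM in control libraries and 39.6, 38.5, 54.5 and 49.5 TPM in the cold ones, again with a split by replicate number and a blocked log2 fold change near 0 (0.02). Axin2, a scaffold and negative feedback target of beta-catenin signaling, was likewise chosen with its values in view. It had 1.96, 1.63, 3.80 and 3.21 TPM in control libraries and 2.50, 2.23, 4.09 and 4.65 TPM in the cold ones, higher in 4 of 4 pairs with overlapping groups, and did not pass the threshold (blocked log2 fold change 0.34, standard error 0.10, edgeR, adjusted p = 0.0655). Nkd1, another feedback gene, had 0.34 to 0.68 TPM in control libraries and 0.29 to 0.45 TPM in the cold ones, lower in 4 of 4 pairs, with a blocked log2 fold change of −0.51 (edgeR, adjusted p = 0.408).

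Tcf7 had 14.4, 14.4, 15.3 and 14.8 TPM in control libraries and 14.8, 14.1, 16.6 and 14.8 TPM in the cold ones, with no split between groups or numbers (blocked log2 fold change 0.05, 95% interval −0.09 to 0.19). Tcf7l2 had 6.52, 8.48, 8.78 and 8.92 TPM in control libraries and 7.66, 8.93, 9.35 and 9.49 TPM in the cold ones. It was higher in 4 of 4 pairs but did not pass the threshold (blocked log2 fold change 0.15, edgeR, adjusted p = 0.207). Across the 42 genes tested, 7 were lower and 7 higher in all 4 pairs, where 10.5% and 12.8% of all genes tested were.

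**Figure D3:**
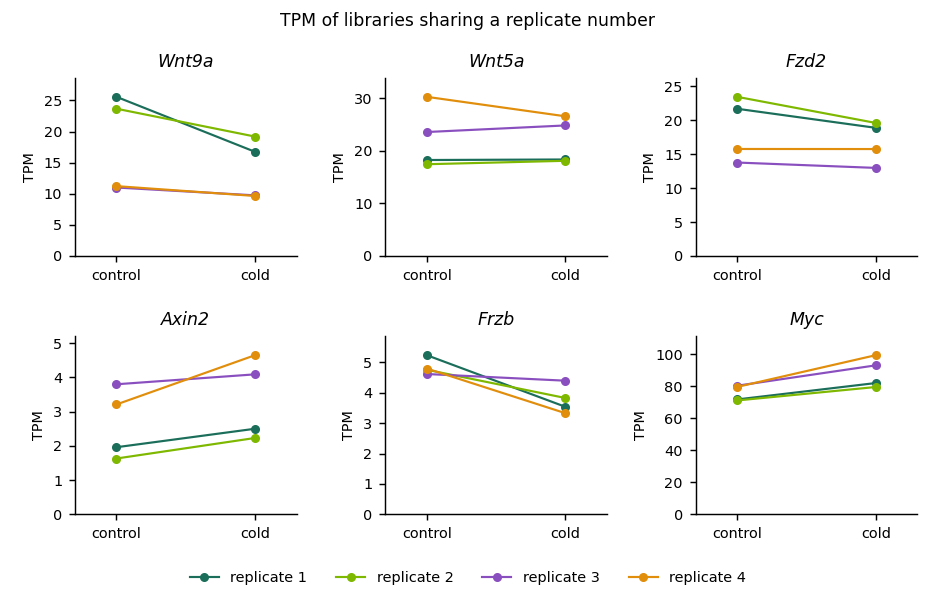
TPM of Wnt9a, Wnt5a, Fzd2, Axin2, Frzb and Myc in control and cold libraries, with a line joining the libraries of each replicate number. Wnt9a falls in each pair while its replicates 1 and 2 stay above 3 and 4, and Myc rises in each pair.

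About as many Wnt genes differed between replicate numbers as did not. In the blocked fit, a test of the replicate numbers called 20 of 42 Wnt genes (47.6%), against 35.4% of all genes tested. The median range between numbers was 0.60 on the log2 scale, beside 0.25 over all genes tested, and 9 of the 42 genes had means under 1 TPM. A range of at least 1 was seen in 11 of 42 genes (26.2%), against 6.81% of all genes tested. By role, the test called 5 of 10 ligands, 5 of 9 Frizzleds, 1 of 2 co-receptors, 3 of 5 antagonists, 3 of 4 R-spondin and LGR genes, 3 of 7 intracellular genes, 0 of 2 ligases and 0 of 3 TCF/LEF genes. The genes split in direction: Wnt9a, Fzd1, Fzd2, Fzd5, Fzd8, Lgr4, Lgr6, Dkk3 and Ctnnb1 were highest in number 1 or 2, and Wnt2b, Wnt4, Wnt5a, Wnt7b, Fzd4, Lrp5, Sfrp1, Dkk2, Rspo4, Dvl1 and Axin2 in number 3 or 4.

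Of the 3 genes with the largest range among these 20, Rspo4, an R-spondin, had 0.18, 0.09, 0.21 and 0.43 TPM in control libraries and 0.02, 0.06, 0.24 and 0.34 TPM in the cold ones. Wnt2b, a canonical ligand, had 0.50, 0.44, 2.11 and 1.53 TPM in control libraries and 0.50, 0.60, 2.04 and 1.28 TPM in the cold ones. Wnt7b, a ligand known from lung development, had 0.36, 0.40, 1.09 and 0.82 TPM in control libraries and 0.37, 0.51, 1.01 and 0.72 TPM in the cold ones. In Wnt2b and Wnt7b, replicates 3 and 4 were above 1 and 2 in both groups, and their ranges were 1.98 and 1.40 on the log2 scale, beside blocked cold changes of −0.04 and 0.07. Fibroblast markers moved with the replicate numbers: the summed TPM of 9 of them was 1217.77 to 1746.88 in control and 1203.78 to 1694.87 in cold libraries, highest in number 4 of each group, and all 8 tested differed between numbers while 0 were called for cold with the block. SC and myoblast markers, a list that also holds Myog, moved with the numbers as well. All 10 differed between numbers, beside 35.4% of all genes tested. Of these, 7 were highest in number 1 or 2, while Pax7, Myf5 and Msc were highest in number 3 or 4. With the block, 4 of 10 were lower in the cold (Myod1, Myog, Cdh15 and Itga7), beside 4.07% of all genes tested. Without it, 0 were. Pax7 and Myf5 had blocked log2 fold changes of 0.08 and 0.08. The summed TPM of the 10 markers was 2561.63 to 3535.37 in control and 2280.28 to 2968.92 in cold libraries. Myog alone had means of 738 and 449 TPM. Endothelial markers (6 genes) summed to 2.53 to 4.24 TPM in control libraries and 2.62 to 4.14 TPM in the cold ones, and Schwann cell markers (4 genes) to 2.39 to 3.91 and 2.41 to 3.35 TPM. Mural cell markers (6 genes) summed to 66.35 to 93.60 and 64.72 to 88.82 TPM, and immune markers (4 genes, almost entirely Cd68) to 23.67 to 50.66 and 23.37 to 51.97 TPM. Within these lists, Thy1, Col1a1 and Dcn (fibroblasts) exceeded 100 TPM in every library, Pdgfrb and Cspg4 (mural cells) had control means of 42.5 and 28.3 TPM, and Cdh5 (endothelial cells) had one of 1.62 TPM. In the same lists, Ptprc, Adgre1, Itgam, Kdr, Kcnj8 and Scara5 reached at most 0.07 TPM in any library. By staining, the study found nearly all cells isolated from hamster muscle positive for Pax7 or MyoD, and the TPM of a marker does not count cells. The part of these cell types in the differences between replicate numbers was not tested, and in the controls the number cannot be told apart from the days at 37°C that the treatment field gives.

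**Figure D4:**
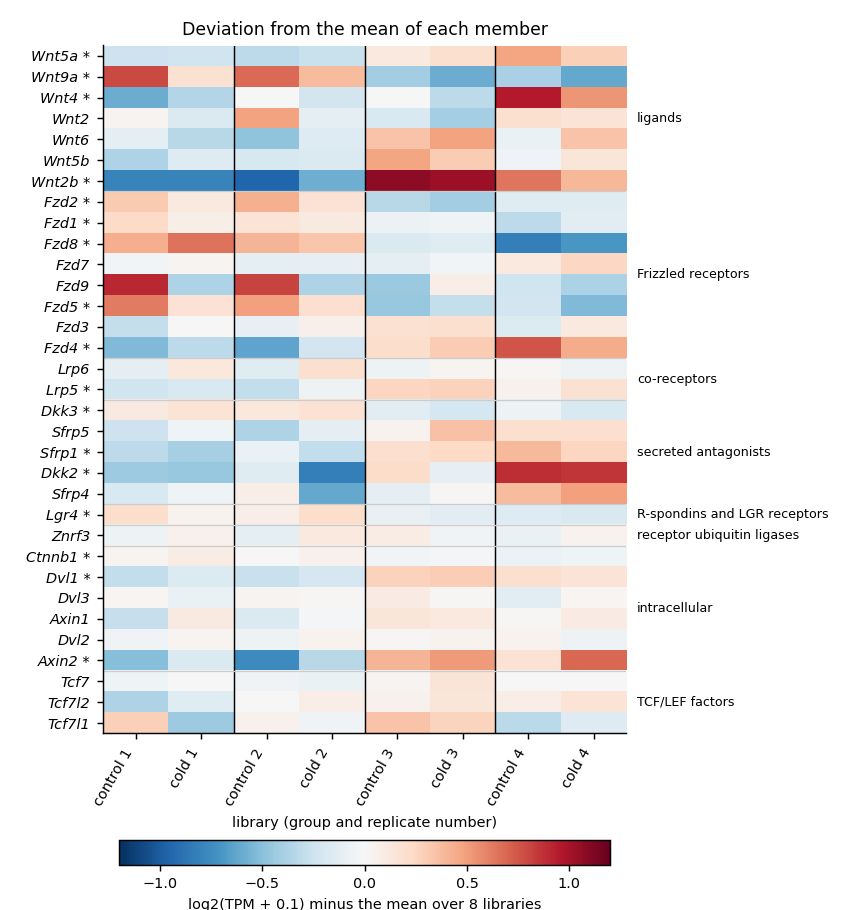
Log2(TPM + 0.1) of the 33 Wnt genes with a mean of at least 1 TPM, minus the mean of each gene over the 8 libraries, with the control and cold library of each replicate number side by side and an asterisk on genes that differ between replicate numbers. Wnt9a is red in replicates 1 and 2, and Wnt2b is red in replicates 3 and 4, in both groups.

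Beyond these families, 72 of the other pathway genes had values and 67 were tested, in the groups secretion and extracellular control, destruction complex, nuclear cofactors, beta-catenin-independent signaling and target genes. Without the block 0 of 67 were called by edgeR (2 lower and 2 higher at an unadjusted p under 0.05, beside 516 and 322 of the 12506), and with it 1 was lower and 1 higher, beside the 5.33% of all genes called with the block. Control and cold TPM did not overlap in 4 of the 67, Frzb lower in the cold and Csnk1g2, Fbxw11 and Ctbp1 higher, beside 4.68% of all genes. Frzb, a secreted Sfrp-related antagonist, had 5.24, 4.76, 4.62 and 4.80 TPM in control libraries and 3.54, 3.83, 4.40 and 3.33 TPM in the cold ones, so that every cold value was under every control value (exact permutation p = 0.0286, the smallest that 4 against 4 allow). Its blocked log2 fold change was −0.39 (edgeR, adjusted p = 0.044; DESeq2 with the block, adjusted p = 0.37), and it did not pass without number 1, 2 or 4 (−0.31, −0.40 and −0.36, edgeR, adjusted p = 0.247, 0.147 and 0.0932). Myc, a target gene and growth regulator, had 71.7, 71.0, 80.2 and 79.5 TPM in control libraries and 81.9, 79.4, 92.9 and 99.3 TPM in the cold ones. It rose in 4 of 4 pairs with overlapping groups, by 0.21 on the log2 scale with the block (edgeR, adjusted p = 0.0104) and without passing unblocked (adjusted p = 0.503) or when number 3 was left out (0.20, adjusted p = 0.0553). Among the other targets, Ccnd1 had means of 315 TPM in control libraries and 335 TPM in the cold ones and Id2 had 575 and 640 TPM, and neither passed the threshold with all libraries (Id2 did so with the block without number 2, at 0.21, edgeR, adjusted p = 0.0371). The ligand carrier Wls, at 80.0 and 79.5 TPM, and the acyltransferase Porcn, at 42.1 and 40.5 TPM, also did not pass. In the destruction complex, 0 of 15 genes tested were called, and all 15 blocked log2 fold changes lay between −0.09 and 0.11.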

How the data were processed

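The series was deposited as 1 table of 8 hamster SC libraries. The expected counts are the authors' own estimates, deposited without normalization, and were whole numbers in 96.4% to 96.7% of values per library. The deposited TPM values are scaled within each library and correct for transcript length. Its normalized counts, a signal, equal the deposited expected count rounded up times 1 factor per library (0.924 to 1.02). HISAT and HISAT2 are listed in the submitters' processing notes without role or version. The counting program and genome build are not given in the sources used here, so no coordinates are given. Of the 56 genes, 1 (Tcf7l1) had counts with decimals, which can come from shared reads.

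Expected counts were rounded and fitted with edgeR 4.0.16 in R 4.3.3 (filterByExpr, TMM, quasi-likelihood F test, Benjamini-Hochberg over 12506 genes). Calls use an adjusted p under 0.05, with the study's log2 fold change threshold of 1 as a second rule. TPM of single genes were compared by exact two-sided permutation over 70 arrangements. The fit was tested on simulated counts. Figures used matplotlib 3.10.9 in Python 3.11.15. Depth was 16530747 to 18533801 expected counts per library, and floors cover counting error only.

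Replicate numbers come from the titles, and what a number marks is not stated, although the treatment field of the controls gives each number its own count of days at 37°C. Deviations from the group mean, across genes, correlated at 0.609, 0.618, 0.647 and 0.659 for each control and its same-numbered cold library, at 0.432 to 0.591 within numbers 1 and 2 or 3 and 4, and at −0.553 to −0.609 otherwise. Each control thus correlated most with its same-numbered cold library, but only narrowly within numbers 1 and 2, and this ordering was not tested. The larger contrast was between numbers 1 and 2 and numbers 3 and 4. A block on the number was fitted beside the unblocked comparison. Libraries of 1 group differed by more than counting noise (chi-square per gene 2.46 to 27.0), so none was treated as a copy of another, which does not by itself show that they are independent (the study calls them biological replicates).

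Genes and lists were chosen with earlier results of these data known. Values in all libraries are given for genes called for cold in either fit, the 2 genes of highest mean TPM in each role, and the 3 of largest range among those differing between numbers, and exceptions are marked. Alternatives were DESeq2 1.42.0, limma 3.58.1 on log2 TPM (pseudocounts 0.1, 1 and 0.01), RLE factors, library totals, no filter, a stricter filter, the block, and leaving out libraries or numbers.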

Additional observations from a re-analysis of the deposited data

Results flagged for a closer look

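In the cold group, Fzd9 of replicate 3 had 3.45 TPM while the nearest of the other 3 cold libraries had 2.50 TPM, a gap of 0.979 of the whole range of the group. The value was set apart because that ratio passes Dixon's 95% critical value for 4 samples. It was the only one among 48 groups of 4 values tested, where about 2.4 would be set apart by chance.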

How the results depend on the processing

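Without the block, 0 Wnt genes were called under each alternative, including leaving out each library, with 39 to 53 tested. With the block, 1 Wnt gene was called under TMM, RLE factors, library totals and DESeq2, 1 without number 1 or 2, 3 without number 3 and 4 without number 4. Other pathway genes called were 2 with the block, RLE factors or totals, 1 with DESeq2 and the block, and 1, 2, 1 and 1 without numbers 1 to 4. Among Wnt and other pathway genes, the block with all libraries changed no call other than those of Wnt9a, Frzb and Myc. Wnt genes differing between replicate numbers were 20, or 19 to 24 under other normalizations and filters.

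Over all genes, 9 were called without a fold threshold. The number was 14 with library totals, 142 with DESeq2, 25 with no filter, 4 with the stricter filter, 4 with limma at each pseudocount (5 unfiltered) and 0 to 46 when 1 library was left out. With the block it was 667, or 357 with DESeq2, 659 with RLE factors, 673 with totals, and 394, 356, 574 and 927 without numbers 1 to 4. With the fold threshold, 5 genes became 8 with totals, 66 with DESeq2, 15 with no filter, 3 with the stricter filter, 3 with limma at each pseudocount and 0 to 34 when 1 library was left out. With the block they were 106, or 86 with DESeq2, 107 with RLE factors, 105 with totals, and 88, 101, 135 and 117 without numbers 1 to 4.

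Log2 fold changes of 24 named genes kept their sign in 559 of 597 alternative values. When 1 library was left out, values near 0 changed sign, with ranges of −0.027 to 0.039 for Ctnnb1, −0.117 to 0.029 for Dkk3, −0.07 to 0.11 for Dvl1, −0.153 to 0.049 for Fzd1, −0.144 to 0.037 for Lgr4, −0.52 to 0.40 for Wnt2b, −0.14 to 0.12 for Wnt5a and −0.15 to 0.37 for Wnt7b. With the block, leaving out number 1 gave 0.03 for Fzd1 and 0.015 for Lgr4, number 2 gave −0.037 for Wnt7b, number 3 gave −0.008 for Tcf7, and number 4 gave −0.001 for Ctnnb1, 0.036 for Wnt2b and 0.007 for Wnt5a. In limma, Wnt2b was 0.022 at a pseudocount of 0.1 (0.022 unfiltered) and 0.034 at 0.01, and Wnt7b was −0.005 at 1. The cause of these changes was not tested. Counts of 3 or fewer limit what can be said of the scarce ligands and R-spondins.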
